A study of Mus musculus with 12 samples.

Results

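The immediate-early genes described here are 10 genes, Fos, Fosb, Jun, Junb, Egr1, Ier2, Atf3, Dusp1, Nr4a1 and Btg2, taken by symbol from a table of 22276 gene symbols. All 10 had a value in each of 12 RNA-seq libraries, 1 library for each of 3 groups in white and brown adipose tissue (WAT and BAT), liver and quadriceps muscle. They were selected on their levels and changes between groups in these same libraries, so the values below are a description. The mice were C57BL/6J males of 17 wk, and from 8 wk they ate either normal chow (NCD) or, in both HFD groups, a diet high in fat. The NCD-veh and HFD-veh groups received vehicle, and the HFD-ncls group received narciclasine (ncls), a plant alkaloid, at 1 mg/kg, gavaged once per wk over 7 wk that began at 10 wk of age. The number of animals behind a library is not given in the sources used here. With 1 library per organ and group there is no replicate error, so every difference below describes a pair of libraries, the group and the library cannot be told apart, and no test was made.

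Immediate-early genes are transcribed within minutes of a stimulus to the cell, without new protein synthesis, and their transcripts are short-lived. Many are switched on by serum response factor with its Elk partners, downstream of the MAP kinases, and by CREB, downstream of cAMP and calcium. Several encode transcription factors that act on a later set of genes: Fos and Jun proteins pair to form AP-1, Egr1 is a zinc finger factor, Atf3 is a stress-induced relative of CREB, and Nr4a1 is an orphan nuclear receptor. Dusp1 encodes a phosphatase that switches MAP kinases off again, and Btg2 encodes an antiproliferative protein that promotes the decay of mRNA. In fat, liver and muscle this group of genes is known to respond to hormones, nerve input, exercise and injury, and a tissue's level depends on its state at the time it was taken.

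The upstream sequences of 6 of these genes are shown because the factors above are known to act through short DNA motifs near the start of such genes. Windows from 250 bases before to 50 after the annotated start were given by RefSeq (GRCm38.p6) for 8 of the 10 genes, all but Egr1 and Ier2. The 180 bases before the start are printed 5′ to 3′ on the gene's strand. Capitals mark the short cAMP response element TGACG or its reverse CGTCA, the full element TGACGTCA, the related ATF-like site TGACATCA, or the TATA box TATAAA.
Fos promoter, chr12:85473710-85473889, plus strand: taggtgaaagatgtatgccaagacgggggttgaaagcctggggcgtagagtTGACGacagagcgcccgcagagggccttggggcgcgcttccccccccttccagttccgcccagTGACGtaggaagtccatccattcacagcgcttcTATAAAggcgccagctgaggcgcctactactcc
Fosb promoter, chr7:19310046-19310225, minus strand: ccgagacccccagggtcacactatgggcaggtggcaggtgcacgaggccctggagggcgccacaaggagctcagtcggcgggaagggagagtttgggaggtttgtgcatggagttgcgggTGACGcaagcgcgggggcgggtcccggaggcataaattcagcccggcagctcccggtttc
Jun promoter, chr4:95052223-95052402, minus strand: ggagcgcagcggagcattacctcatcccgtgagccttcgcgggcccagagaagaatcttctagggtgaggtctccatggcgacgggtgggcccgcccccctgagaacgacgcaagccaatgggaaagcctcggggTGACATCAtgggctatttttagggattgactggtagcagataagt
Nr4a1 promoter, chr15:101266666-101266845, plus strand: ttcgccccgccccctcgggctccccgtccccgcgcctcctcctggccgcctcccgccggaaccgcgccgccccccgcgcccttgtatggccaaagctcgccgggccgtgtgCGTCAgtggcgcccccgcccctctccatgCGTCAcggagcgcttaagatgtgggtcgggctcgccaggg
Dusp1 promoter, chr17:26508473-26508652, minus strand: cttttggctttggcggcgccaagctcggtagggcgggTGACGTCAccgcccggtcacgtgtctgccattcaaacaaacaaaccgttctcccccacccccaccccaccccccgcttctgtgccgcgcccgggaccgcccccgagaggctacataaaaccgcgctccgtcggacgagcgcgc
Btg2 promoter, chr1:134079156-134079335, minus strand: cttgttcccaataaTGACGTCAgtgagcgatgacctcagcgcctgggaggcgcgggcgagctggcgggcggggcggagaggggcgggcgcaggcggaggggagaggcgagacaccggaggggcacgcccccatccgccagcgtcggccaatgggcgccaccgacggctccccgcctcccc

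Letters of 9 motifs were searched on both strands of the windows. The short element TGACG was present in 7 of the 8 windows, all but that of Jun, and in 20.8% of 32851 windows of all genes. Fos held it at positions -129 and -66 from the start and a TATAAA at -33. The full element TGACGTCA, which contains the short one on each strand, was present for Dusp1 and Btg2 and in 1.79% of all windows. Jun alone held TGACATCA, which 3.62% of all windows contained. The GC box GGGCGG, the target of Sp1, was in 7 of the 8 windows, all but Junb, and in 35.7% of all windows. Among the other motifs, the Egr site GCGGGGGCG was in the Fosb and Nr4a1 windows (2.91% of all) and TATAAA in those of Fos and Junb (13.6% of all). The AP-1 site TGACTCA (5.2% of all), the Egr form GCGTGGGCG (0.612% of all) and the CArG box of serum response factor (1.63% of all) had no match in the 8 windows. A match is only a run of letters in a window, and it says nothing about binding in these libraries. A motif without a match can still lie outside the window or differ from the searched pattern by a letter.

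Before the values, 3 facts on the libraries bear on them. Depth, estimated from the FPKM steps of genes with few reads, was roughly 18600000 to 26200000 fragments per library, and 9130 to 12052 genes reached 1 FPKM. The defining markers of each organ were present: summed FPKM was 36862 to 41632 for hepatocyte markers in liver, 86373 to 90949 for skeletal muscle markers in muscle, 3849 to 4258 for brown adipocyte markers in BAT and 16087 to 26244 for adipocyte markers in WAT. Some libraries also held transcripts of another organ. The HFD-veh muscle library held hepatocyte markers at a summed 234 FPKM against 0.838 in NCD-veh and 0.404 in HFD-ncls muscle, and skeletal muscle markers in BAT were at 1798 FPKM with NCD-veh, 729 with HFD-veh and 106 with HFD-ncls.

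Levels are given in FPKM, the fragments of a gene scaled for its length and for the depth of the library, so that genes of different length can be set side by side. For each organ, 3 values stand in the order NCD-veh, HFD-veh and HFD-ncls. The order of organs is that of single libraries, and whether neighbours in it differ beyond the spread between animals cannot be said.

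**Figure D1:**
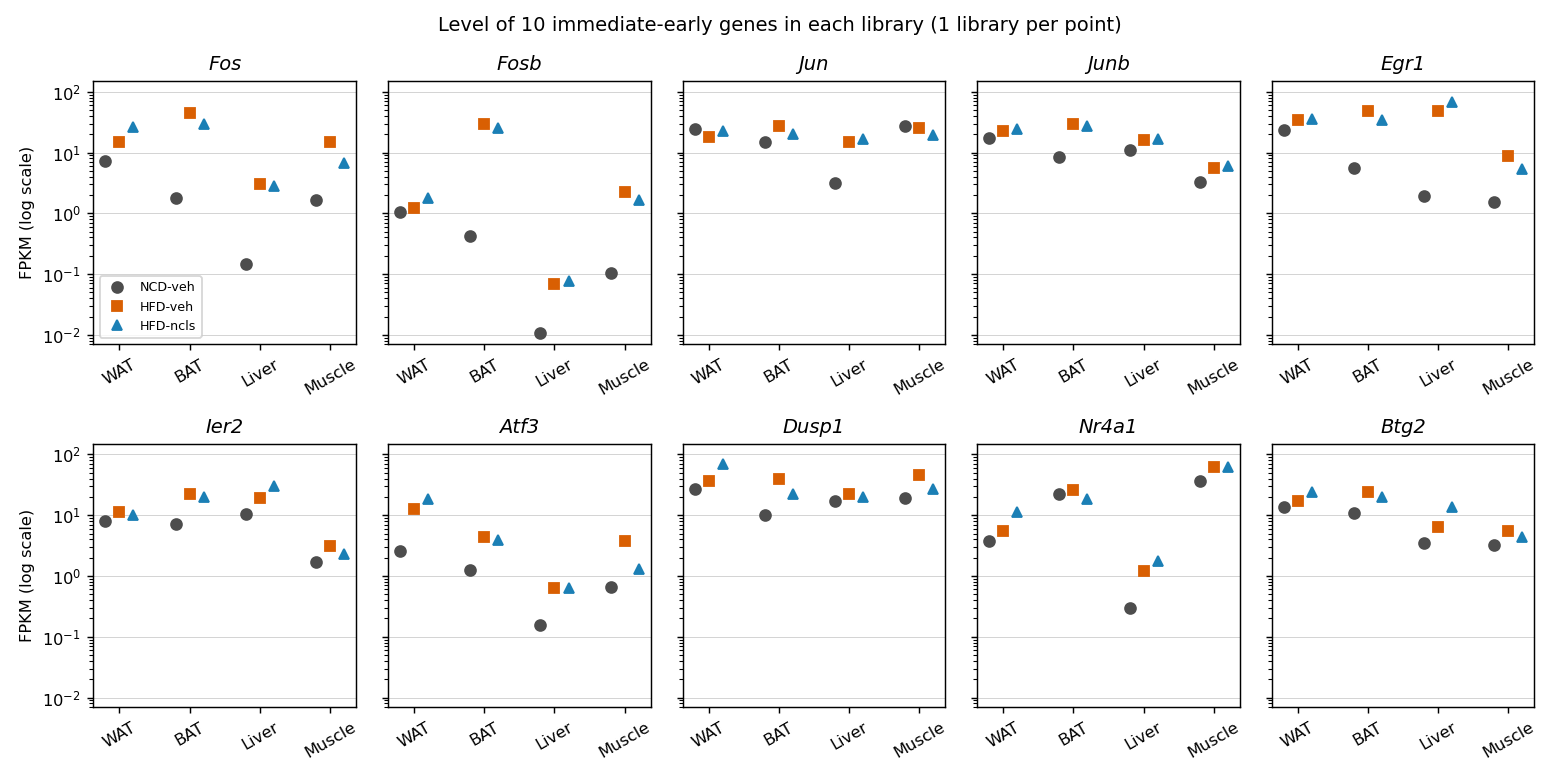
Level of each of the 10 immediate-early genes (FPKM, log scale) in the 12 libraries, with 1 point per library, organs on the horizontal axis and groups by symbol. Most NCD-veh points lie under the other points of their organ, with the widest gaps for Fos, Fosb and Egr1: Fosb in BAT was at 0.422 FPKM in NCD-veh and 29.8 in HFD-veh.

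Among the AP-1 genes, Fos (chr12:86814840-86818223, plus strand, mm9), the inducible partner of Jun, was at 7.23, 14.9 and 26.3 FPKM in WAT, at 1.80, 44.2 and 29.4 in BAT, at 0.145, 3.04 and 2.84 in liver and at 1.65, 14.8 and 6.73 in muscle. NCD-veh was the lowest library in all 4 organs, and the HFD-ncls library lay above HFD-veh in WAT but below it in the other 3 organs. The lowest value, in NCD-veh liver, rests on about 7 fragments. Fosb (chr7:19888070-19895394, minus strand, mm9), a close relative of Fos, was at 1.07, 1.22 and 1.80 FPKM in WAT, at 0.422, 29.8 and 25.3 in BAT, at 0.0109, 0.0685 and 0.0767 in liver and at 0.103, 2.25 and 1.64 in muscle. Fosb was thus high in the 2 HFD libraries of BAT and under 0.1 FPKM in every liver library, where the NCD-veh value is about 1 fragment and no fold is given. The ratio of Fosb to Fos was 0.674 and 0.862 in HFD-veh and HFD-ncls BAT, and 0.244 or less in each of the other 10 libraries.

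Jun (chr4:94715725-94718913, minus strand, mm9), its partner in AP-1, was at 24.4, 18.2 and 23.0 FPKM in WAT, at 15.2, 27.3 and 19.99 in BAT, at 3.18, 15.0 and 16.8 in liver and at 27.0, 25.01 and 19.7 in muscle. Unlike Fos, Jun was highest in NCD-veh in WAT and muscle, and its 12 values spanned 8.57-fold against 305-fold for Fos. Junb (chr8:87500811-87502617, minus strand, mm9), a Jun relative and weaker activator, was at 17.6, 22.7 and 24.3 FPKM in WAT, at 8.59, 29.7 and 27.6 in BAT, at 11.1, 16.0 and 16.6 in liver and at 3.26, 5.65 and 6.03 in muscle. Each NCD-veh library was the lowest of its organ for Junb, and muscle was the lowest organ in all 3 groups. The ratio of Fos to Jun was 0.119, 1.62 and 1.47 in BAT and 0.0455, 0.203 and 0.168 in liver, so that Fos transcripts exceeded those of Jun in BAT only on HFD and in no liver library.

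Egr1 (chromosome 18, mm9), a zinc finger factor of growth factor and stress responses, was at 23.8, 34.3 and 35.1 FPKM in WAT, at 5.65, 47.8 and 34.5 in BAT, at 1.89, 47.5 and 66.6 in liver and at 1.51, 8.93 and 5.44 in muscle. Its order of organs was WAT, BAT, liver and muscle in NCD-veh, and in HFD-ncls liver came highest of the 12 libraries. Atf3 (chr1:192994175-193007219, minus strand, mm9), a stress-induced factor that often represses its targets, was at 2.62, 12.5 and 18.2 FPKM in WAT, at 1.25, 4.40 and 3.93 in BAT, at 0.154, 0.644 and 0.640 in liver and at 0.664, 3.83 and 1.29 in muscle. WAT was its highest organ and liver its lowest in all 3 groups.

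Nr4a1 (chr15:101097277-101105223, plus strand, mm9), a nuclear receptor induced by exercise and adrenergic signals in muscle, was at 3.76, 5.43 and 11.4 FPKM in WAT, at 22.0, 26.3 and 18.8 in BAT, at 0.292, 1.20 and 1.79 in liver and at 36.1, 62.4 and 61.3 in muscle. It kept 1 order of organs in all 3 groups: muscle, BAT, WAT and liver. Dusp1 (chr17:26642535-26645464, minus strand, mm9), the MAP kinase phosphatase, was at 26.5, 36.8 and 69.0 FPKM in WAT, at 10.2, 39.1 and 22.7 in BAT, at 16.9, 22.1 and 19.9 in liver and at 19.1, 45.2 and 26.5 in muscle. Its 12 values spanned 6.75-fold, the narrowest range of the 10 genes.

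Btg2 (chr1:135971747-135975697, minus strand, mm9), the antiproliferative gene, was at 13.7, 17.4 and 24.0 FPKM in WAT, at 11.03, 23.9 and 20.05 in BAT, at 3.43, 6.36 and 13.7 in liver and at 3.23, 5.44 and 4.46 in muscle. Ier2 (chr8:87185230-87186751, minus strand, mm9), a nuclear protein gene named for its early response, was at 8.04, 11.2 and 10.1 FPKM in WAT, at 7.29, 22.6 and 19.97 in BAT, at 10.4, 19.4 and 30.5 in liver and at 1.73, 3.08 and 2.32 in muscle. Both genes were lowest in NCD-veh in each organ, and both were highest in HFD-ncls in liver. Summed over the 10 genes, the level was 129, 175 and 243 FPKM in WAT, 83.5, 295 and 222 in BAT, 47.4, 131 and 170 in liver and 94.4, 177 and 135 in muscle.

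The comparison of HFD-veh with NCD-veh asks how the diet goes with these genes. Differences are in log2(FPKM + 0.1), for genes with at least 1 FPKM in 1 of both libraries, and a difference over 2-fold is one above 1 on that scale. All 10 genes passed this filter in WAT, BAT and muscle, and 8 passed in liver, where Fosb and Atf3 did not. No tested gene of the 10 was over 2-fold lower on HFD in any organ, where 3.87% of all tested genes were in WAT, 2.01% in BAT, 2.27% in liver and 0.97% in muscle. Since the genes were chosen with these contrasts known, the shares of all genes are printed only as background.

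In BAT, 8 of the 10 genes were over 2-fold higher in HFD-veh than in NCD-veh, where 2.28% of all tested genes were, and the median difference was 1.76 against -0.04 over all tested genes. Fosb differed most, by 5.84, and Fos by 4.54, and they ranked 2 and 3 of 10444 tested genes. Egr1 was higher by 3.06, Dusp1 by 1.92, Junb by 1.78, Atf3 by 1.74, Ier2 by 1.62 and Btg2 by 1.11. The remaining genes were Jun at 0.84 and Nr4a1 at 0.25, both above 0. Skeletal muscle markers were lower in the HFD-veh library of BAT (6 of 8 over 2-fold lower), and from NCD-veh to HFD-veh endothelial markers went from 128 to 163 FPKM and macrophage markers from 42.9 to 57.1 FPKM. Most of the macrophage sum was Lyz2, at 30.8 and 40.2 FPKM. Of 5 tested macrophage markers, 3 were above 0, with Cd68 over 2-fold higher, while Cd14 went from 4.15 to 2.66 FPKM. The part of these lists in the differences was not tested. RNA of other organs at its estimated share in the HFD-veh library would make up 0.113% of the Fosb and 0.724% of the Fos value there.

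In liver, 4 of the 8 tested genes were over 2-fold higher in HFD-veh, where 2.86% of all tested genes were, and the median was 1.31 against 0.04. Egr1 was higher by 4.58, rank 12 of 10016 tested genes, and Fos by 3.68, rank 18. Jun was higher by 2.20 and Nr4a1 by 1.73, the 2 genes that differed least in BAT. Ier2 at 0.89, Btg2 at 0.87, Junb at 0.53 and Dusp1 at 0.38 were above 0 but within 2-fold. Fos and Nr4a1 were under 5 FPKM in both libraries, and with that minimum 2 genes were over 2-fold higher. Atf3, under the filter, was at 0.154 and 0.644 FPKM. Macrophage markers were at 36.4 FPKM in NCD-veh and 28.4 in HFD-veh liver, and endothelial markers at 12.5 and 11.6 FPKM, both lower on HFD. Smooth muscle markers were higher, at 4.17 and 8.87 FPKM, with 2 of 3 tested (Acta2 and Des) over 2-fold higher and a median of 1.146. Skeletal muscle markers were at 2.14 and 56.9 FPKM, with all 8 over 2-fold higher. The part of these lists was not tested.

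In muscle, 5 of the 10 genes were over 2-fold higher in HFD-veh, where 3.14% of all tested genes were, and the median was 1.02 against 0.03. They were Fosb (3.53), Fos (3.08), Egr1 (2.48), Atf3 (2.36) and Dusp1 (1.24). Jun was the exception in direction at -0.11. The other 4 genes, Ier2 (0.80), Nr4a1 (0.79), Junb (0.78) and Btg2 (0.73), had raw ratios between 1.68 and 1.78. Fosb and Atf3 were under 5 FPKM in both libraries, and with that minimum 3 genes were over 2-fold higher. Because this library held liver transcripts at an estimated 0.600% of the liver level, many genes of liver ranked above these: Fosb was rank 143 and Fos rank 164 of 9587 tested genes. With genes enriched in another organ left out, they ranked 11 and 14 of 9144, and 0.853% of genes were over 2-fold higher. Transcripts of other organs at the estimated shares would account for 9.21% of the Fosb value, 2.60% of Fos, 8.54% of Egr1 and 2.34% of Atf3 in the HFD-veh library. BAT entered there at an estimated 0.674% of its level. Brown adipocyte markers summed to 752 FPKM in NCD-veh and 718 in HFD-veh muscle. Ucp1 was at 0.179 and 0 and Cidea at 0.690 and 0.109, and only Ppargc1a of that list was higher, at 3.51 and 3.80. The BAT part of these values can therefore be too high. Adipocyte markers also moved, with Lep, Plin1 and Retn over 2-fold higher, Cfd lower and a median of 0.97 over 6 genes, and their part was not tested.

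In WAT, 2 of the 10 genes were over 2-fold higher in HFD-veh, where 5.24% of all tested genes were, and the median was 0.47 against 0.03. Atf3 was higher by 2.21, and Fos, by 1.03, lay just inside the threshold. No gene lay just outside it. Egr1 and Nr4a1 came next at 0.52, or 1.44-fold and 1.43-fold, followed by Ier2 and Dusp1 at 0.47, Junb at 0.37, Btg2 at 0.34 and Fosb at 0.18. Jun was lower, at -0.42. Fos lost its call with a pseudocount of 1 and when the estimated RNA of other organs was subtracted, which left Atf3 alone. BAT entered that subtraction at 0.668% of its level. Brown adipocyte markers summed to 16.2 FPKM in NCD-veh and 25.4 in HFD-veh WAT, against 3986 in HFD-veh BAT. Of 4 tested, 2 were higher, and Ucp1 was lower, at 2.86 and 2.38. The rise of the sum lies below that share, so the subtraction can be too large. Other markers also differed in this organ: in the group order used above, the macrophage list was at 639, 877 and 1102 FPKM in WAT, the endothelial list at 145, 222 and 228, the smooth muscle list at 86.8, 206 and 182 and the neutrophil list at 9.59, 43.4 and 37.8. In both HFD groups a single gene made up most of the smooth muscle sum (Acta2, at 44.1, 155 and 114) and of the neutrophil sum (S100a8, at 4.19, 34.7 and 35.5). The hepatocyte list moved most, at 2.06, 24.97 and 91.6 FPKM, and all 6 of its tested genes were over 2-fold higher in HFD-veh, with a median of 3.86. The adipocyte list was lower on HFD, at 26244, 17420 and 16087 FPKM. In HFD-veh only 1 of its 6 genes was above 0 (Lep, over 2-fold), Cfd was over 2-fold lower and the median was -0.50. Of 6 measured macrophage markers, 5 were higher and 2 over 2-fold higher in HFD-veh. More cells of a type and more RNA per cell cannot be told apart in such bulk tissue, and the part of these lists in the result was not tested.

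**Figure D2:**
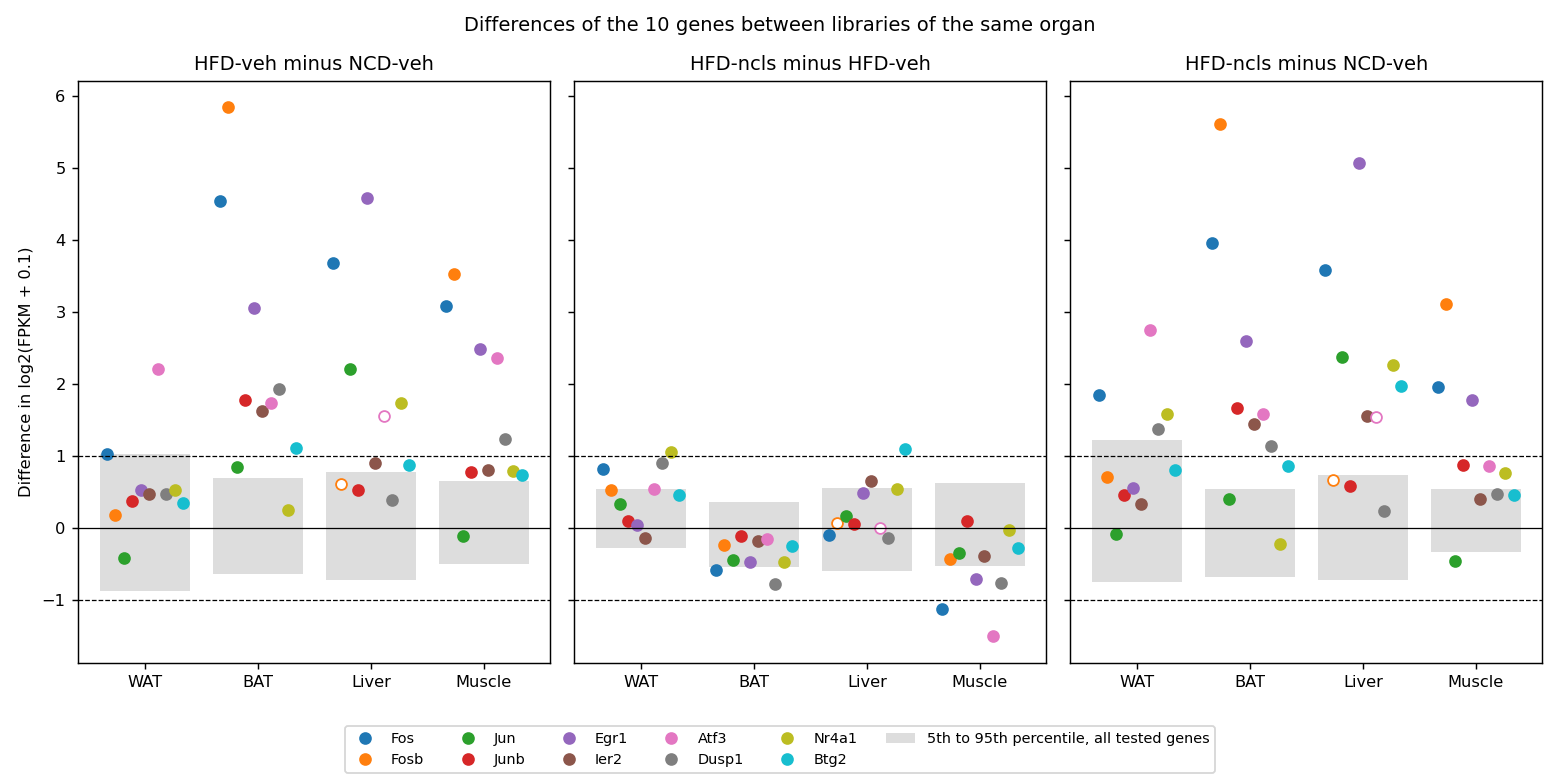
Difference in log2(FPKM + 0.1) of each of the 10 genes between libraries of 1 organ, with grey bars for the 5th to 95th percentile of all tested genes, dashed lines at 2-fold and open circles for genes under the filter. In HFD-veh minus NCD-veh, Fosb (5.84) and Fos (4.54) in BAT and Egr1 (4.58) in liver stand highest, whereas HFD-ncls minus HFD-veh values lie between -1.51 and 1.10.

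Across organs, Fos was over 2-fold higher in HFD-veh than in NCD-veh in all 4 organs, and no other of the 7881 genes tested in every organ was. That count fell to 0 with a pseudocount of 1, with a minimum of 5 FPKM and with RNA of other organs subtracted. Fos in WAT, at 1.03, lies near the threshold, the subtraction in WAT can be too large, and both liver values of Fos are under 5 FPKM. With Fos, the genes Junb, Egr1, Ier2, Dusp1, Nr4a1 and Btg2 were above 0 in all 4 organs, 7 of the 8 members tested in each, where 7.12% of all genes were. Egr1 was over 2-fold higher in 3 organs, BAT, liver and muscle, where 6 genes of 7881 reached at least 3. Atf3 was so in WAT, BAT and muscle, and its liver values, under the filter, differed by 1.55. The organs shared no library in this comparison, but the labels do not say whether they came from the same animals. They cannot be counted as independent repeats.

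HFD-ncls was then set against HFD-veh, the comparison of the drug on the same diet. It used the HFD-veh libraries of the comparison above, so a high or low HFD-veh value enters both with opposite sign, and only the values are set side by side. Over the 4 organs the differences lay between -1.51 and 1.10, and their direction varied with the organ. No tested member was over 2-fold lower in WAT, where 0.214% of all tested genes were, or in liver (1.31%), and none was over 2-fold higher in BAT (0.261%) or muscle (1.27%).

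In WAT, 9 of the 10 genes had a higher level with ncls, where 58.5% of all tested genes did, and 8 did so when the libraries were rescaled to a median ratio of 0, since Egr1 lay at 0.03. Nr4a1 was over 2-fold higher, by 1.06, where 1.49% of all tested genes were, and with a pseudocount of 1 it was not. Dusp1 at 0.90 and Fos at 0.82 came next, with Atf3 at 0.54, Fosb at 0.52, Btg2 at 0.46, Jun at 0.33 and Junb at 0.09, and Ier2 was at -0.14. The median of the 10 genes was 0.49 against 0.04. Brown fat transcripts were estimated at 2.51% of their BAT level in the HFD-ncls WAT library, and at that share they and those of the other organs would make up 35.4% of its Fosb value, whose difference became 0.17 when they were subtracted. For Nr4a1, Fos and Dusp1 the corresponding parts were 4.75%, 2.87% and 0.957%. The brown adipocyte list, by group as above, summed to 16.2, 25.4 and 26.1 in WAT, while BAT with ncls held 4258. Ucp1 was at 2.86, 2.38 and 3.92, while BAT with ncls held 740. Of 4 markers tested against HFD-veh, 3 were higher and Elovl3 was over 2-fold higher. The rises of the sum and of Ucp1 lie below the 2.51% share, so these parts can be too high. Hepatocyte markers were higher in this library, with 6 of 7 tested over 2-fold higher and a median of 1.87, and all 6 macrophage markers were above 0, with a median of 0.15 and none over 2-fold. Their part was not tested.

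In BAT, all 10 genes had a lower level with ncls, where 46% of all tested genes had a higher one. None of the 10 was over 2-fold lower, where 1.7% of all tested genes were. Dusp1 was at -0.78, Fos at -0.59, Nr4a1 at -0.48, Egr1 at -0.47 and Jun at -0.45, and the remaining genes lay between -0.26 and -0.11. The median was -0.35 against -0.02. Smooth muscle markers were at 84.7 FPKM with vehicle and 54.2 FPKM with ncls, macrophage markers at 57.1 and 37.5 FPKM, and all 8 skeletal muscle markers were over 2-fold lower. Their part was not tested.

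In muscle, 9 of the 10 genes had a lower level with ncls, where 55.5% of all tested genes had a higher one, and Atf3 (-1.51) and Fos (-1.12) were over 2-fold lower, where 2.53% of all tested genes were. Without genes enriched in another organ that share was 0.585%, and Atf3 and Fos ranked 27 and 42 from the lowest of 9232. Dusp1 was at -0.77, Egr1 at -0.71, Fosb at -0.43, Ier2 at -0.39, Jun at -0.35 and Btg2 at -0.28. Nr4a1, the most abundant member in muscle, was at -0.03, and Junb at 0.09 was the exception in direction. The median was -0.41 against 0.04. Hepatocyte markers were at 234 FPKM with vehicle and 0.404 FPKM with ncls, and macrophage markers at 19.7 and 27.4 FPKM. Of 6 adipocyte markers, Lep and Retn were over 2-fold lower, and the median was -0.56. The part of these lists was not tested. Subtracting the estimated RNA of other organs left the count of 2 genes over 2-fold lower as it was, and with a minimum of 5 FPKM, which Atf3 does not reach in either library, it was 1.

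In liver, 6 of the 8 tested genes had a higher level with ncls, where 52.4% of all tested genes did. Btg2 was over 2-fold higher, by 1.10, where 1% of all tested genes were, and with a pseudocount of 1 it was not. Ier2 was at 0.65, Nr4a1 at 0.54, Egr1 at 0.49, Jun at 0.16 and Junb at 0.05. Fos at -0.10 and Dusp1 at -0.15 were below 0. The median was 0.33 against 0.02, and the macrophage markers, at 28.4 and 22.3 FPKM, were lower. Skeletal muscle markers were at 56.9 and 3.11 FPKM, all 8 over 2-fold lower with a median of -5.00, and the part of both lists was not tested.

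The HFD-ncls libraries were also set against NCD-veh, to place the treated group beside chow. In BAT 7 genes were over 2-fold higher (1.36% of all tested genes), in liver 6 of 8 (2.58%), in WAT 4 (7.11%) and in muscle 3 (0.893%). Medians were 1.51 in BAT, 2.12 in liver, 0.75 in WAT and 0.81 in muscle. Egr1 in liver, at 5.07, was rank 3 of 9961, and Fosb in BAT, at 5.61, rank 4 of 10365. Fos was again over 2-fold higher in all 4 organs, alone among 7869 genes, at 3.96 in BAT, 3.58 in liver, 1.96 in muscle and 1.85 in WAT. In muscle, Fosb was at 3.10 and Egr1 at 1.78, while Atf3 at 0.86 and Dusp1 at 0.47, over 2-fold apart between the diets, were within 2-fold here.

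Read as an order of the 3 groups, HFD-veh was highest, HFD-ncls in the middle and NCD-veh lowest for 9 of 10 genes in BAT and 8 of 10 in muscle, where 18.4% and 20.3% of all genes with at least 1 FPKM in any of the 3 libraries had that order. HFD-ncls was highest and NCD-veh lowest for 8 of 10 genes in WAT (27.2% of all) and 6 of the 8 tested in liver (19.1% of all). The genes over 2-fold higher in HFD-veh than in NCD-veh muscle were placed on the log2 scale from NCD-veh (0) to HFD-veh (1). In muscle HFD-ncls stood at 0.36 for Atf3, 0.38 for Dusp1, 0.64 for Fos, 0.72 for Egr1 and 0.88 for Fosb. In BAT the same genes stood at 0.91, 0.59, 0.87, 0.85 and 0.96, all nearer to HFD-veh than to NCD-veh. Of the other members in BAT, Junb stood at 0.94, Ier2 at 0.89 and Btg2 at 0.77. Jun, at 0.47, was nearer to NCD-veh, and Nr4a1, at -0.90, lay below NCD-veh.

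Other genes of the same response were counted over whole lists. Of these, Egr3, Maff, Dusp6, Dusp8, Plk3, Dbp in BAT, Ctgf in BAT and liver, and Gadd45a in liver are named after their values were seen. The other Egr and Nr4a genes were low: none of 5 was tested in liver, and 1 to 3 elsewhere in the diet comparison. Egr2, a partner in function of Egr1, was at 1.57, 4.85 and 4.52 FPKM in WAT and 0.190, 1.29 and 1.33 FPKM in BAT, which put HFD-veh 1.57 and 2.25 above NCD-veh. Egr3 was the other gene of this list over 2-fold higher in both organs. Nr4a3, a relative of Nr4a1, was at 0.0876, 1.86 and 0.572 FPKM in muscle, 3.38 higher in HFD-veh and -1.54 in HFD-ncls against HFD-veh. Its 3 muscle values lie in the same order as those of Fos, Fosb, Egr1 and Atf3.

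Of 12 other AP-1 family genes, 7 to 10 were tested per organ in the diet comparison, and over the 4 organs 1 was over 2-fold higher, Maff in liver. Batf3 in liver was lower, at -1.96. Their medians lay between -0.15 and 0.25. Of 9 other MAP kinase phosphatase genes, Dusp9 was higher in WAT (1.18) and Dusp8 and Dusp6 were in BAT, with medians between 0.12 and 0.45. The 34 other early response genes were over 2-fold higher in HFD-veh 8 times in BAT, among them Socs3 (2.40), an inhibitor of cytokine signals, and Klf4 (2.08), a zinc finger factor. Gadd45a, Gadd45g and Gadd45b, DNA damage and stress genes, were lower in BAT, at -1.35, -1.13 and -1.04. In the other organs this list held 0 genes over 2-fold higher in WAT, 1 in liver (Gadd45a) and 1 in muscle (Socs3, at 1.52).

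The upstream regulators, 23 genes for serum response factor, its partners, CREB, its coactivators and the MAP kinases, had 0 over 2-fold higher in HFD-veh in any organ and 1 lower, Elk4 in muscle at -1.55, with medians between -0.01 and 0.11. Heat shock genes, another list induced by stress, had a median of 0.64 in BAT and between -0.15 and 0.23 elsewhere, and Hspa1b in liver was at -1.99. Clock genes, which vary with the time of day, were over 2-fold apart in liver for 7 of 12 tested, with Dbp at 3.87, 54.8 and 37.7 FPKM and Arntl at 5.61, 0.457 and 1.52 FPKM. Dbp was at 19.4, 55.2 and 48.2 FPKM in muscle and at 45.7, 18.6 and 31.5 in WAT, whereas in BAT it was at 14.2, 11.3 and 13.5 and no clock gene of 12 was over 2-fold apart. The part of the clock genes in the differences of the immediate-early genes was not tested. In BAT the median of the clock list was -0.02, with 6 of 12 tested genes above 0. Clock genes can move in opposite directions, as Dbp and Arntl did in liver, so a median near 0 does not show whether they shifted.

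**Figure D3:**
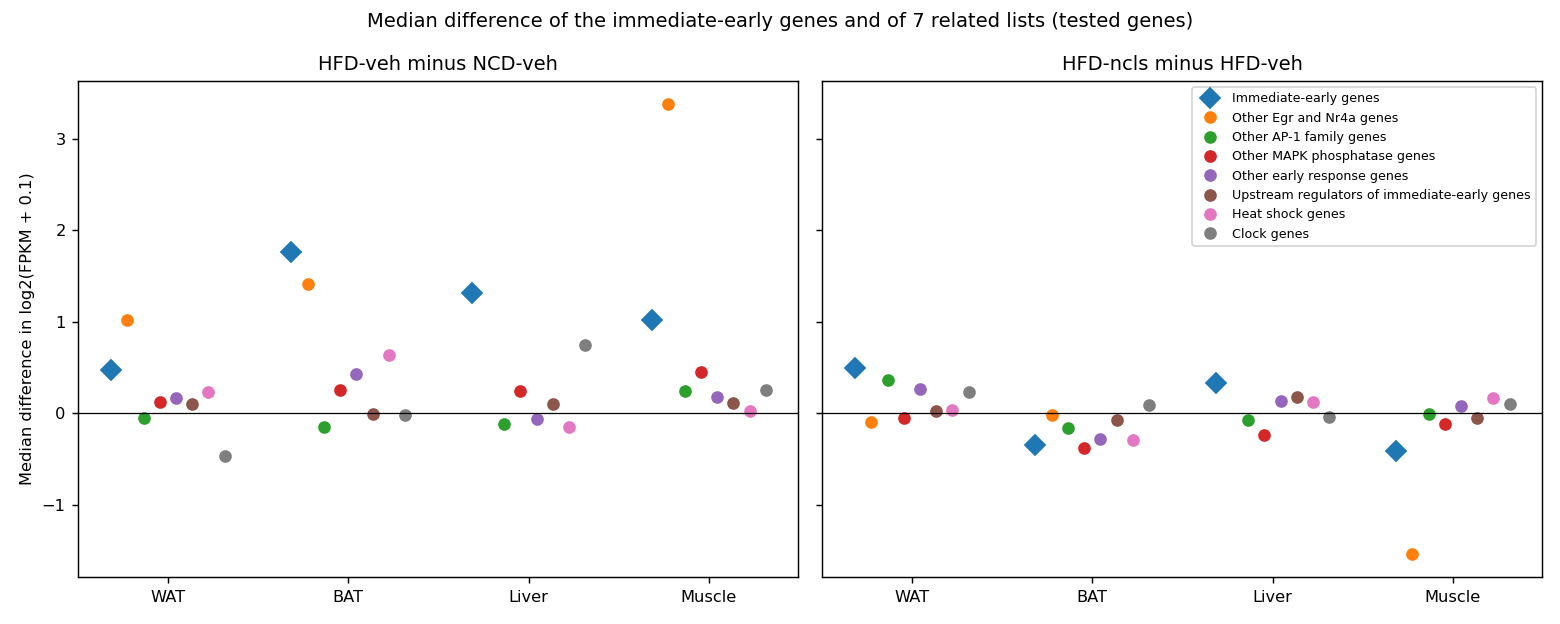
Median difference in log2(FPKM + 0.1) of the immediate-early genes (diamonds) and of 7 related gene lists (circles) in each organ, over the genes tested, for HFD-veh minus NCD-veh and HFD-ncls minus HFD-veh. The immediate-early genes lie at 1.76 in BAT and 1.31 in liver, the upstream regulators between -0.01 and 0.11, and the Egr and Nr4a point in muscle (3.38) is the single gene Nr4a3.

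Between HFD-ncls and HFD-veh, the other early response list held 3 of 33 tested genes over 2-fold higher in WAT and 2 of 29 in muscle. Ctgf, a secreted matrix-associated factor, was among them in WAT (1.26) and in muscle (1.18). In BAT it was lower, at 1.37 FPKM with vehicle and 0.751 with ncls. In liver 4 genes of the list were over 2-fold higher, Plk3, Ctgf and the pair given next. Gadd45g was at 14.9, 13.1 and 99.6 FPKM and Myc, a growth factor-induced transcription factor, at 1.69, 1.95 and 12.8 FPKM. Neither of these liver genes was over 2-fold apart between the diets. In BAT, Klf4 at -1.23 and Sgk1 at -1.04 were lower, as the 10 genes were, and in muscle Sgk1 was at -1.10.

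How far the 10 genes moved together was described with Pearson's r over the 12 libraries, after the mean of each organ was taken away from log2(FPKM + 0.1). The 12 points share 4 organs and the contrast between the groups, on which the genes were chosen, so r is a description with no p. All 45 pairs were above 0, from 0.26 for Fosb with Jun to 0.97 for Fosb with Junb, with a median of 0.74, and 39 pairs were over 0.5. Fos followed the mean of the other 9 genes most closely (0.99) and Jun least (0.62).

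**Figure D4:**
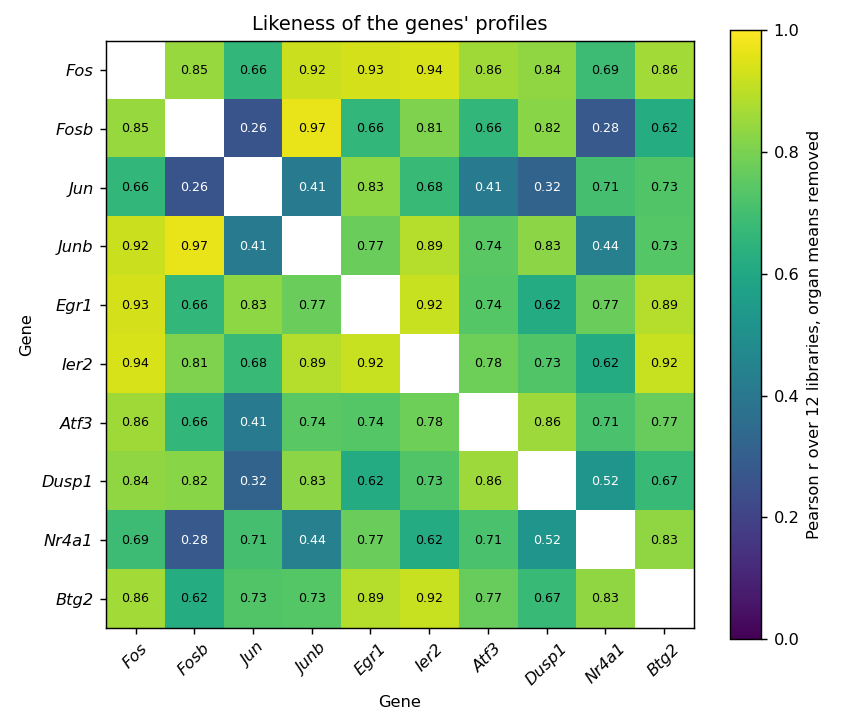
Pearson's r between each pair of the 10 genes over 12 libraries, organ means removed, coloured from 0 to 1 with the value printed in each cell. Values for Fos run from 0.66 to 0.94, and the lowest cells are those of Jun and Nr4a1 with Fosb, at 0.26 and 0.28.

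The profile of the 10 genes was also compared over 8061 genes that had at least 1 FPKM in a library of every organ, a count that takes in the members that did. Outside the members, the 10 with the highest r were Ttc27, Zfp36, Lbr, Dcun1d2, Gopc, Pdf, Tmem120a, Lsm6, Bnip2 and 2610001J05Rik, from 0.95 down to 0.91, and 94 genes were at 0.8 or more. Zfp36, which encodes an mRNA decay factor and is an early response gene in its own right, was at 42.9, 42.1 and 54.3 FPKM in WAT, 19.1, 42.2 and 36.5 in BAT, 53.1, 80.4 and 112 in liver and 6.06, 11.9 and 7.62 in muscle. It held its place by rank as well, with a Spearman's rho of 0.97, the highest of the 10. Ttc27, with the highest r, differed little in level: it was at 1.22, 1.76 and 1.71 FPKM in BAT.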

How the data were processed

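The deposited table holds FPKM values, made by the authors from reads aligned to mm9 with TopHat 2.0.11 and quantified with Cufflinks on RefSeq genes, 1 column per organ and group. No scaling between libraries is stated, and 86 symbols lacked a value in at least 1 library. Pairs of libraries were compared on the log2(FPKM + 0.1) scale, which understates differences of low genes, and only a gene that reached 1 FPKM in either library entered. The p and FDR criteria of the study need replicates and were not applied. Depth came from the smallest FPKM steps of single-transcript genes, and fragments per gene from depth and transcript length. Both are approximate. RNA of another organ was estimated from genes enriched in that organ. Such a gene had a mean there of 10 FPKM or more and a 20-fold excess over its median elsewhere. A gene that is also high in a second organ is not excluded by this rule. The estimate is the median excess of these genes over the lowest library. It takes in true differences of those genes, also in a second organ, and sets the lowest library to 0. It can therefore be too high or too low. Marker sums cover genes with a value in all libraries. Gene positions are from GENCODE M1 (mm9) and promoter letters from RefSeq (GRCm38.p6). The members and all gene lists were chosen with earlier results of these data known. The genes named were the members, in each comparison the 3 largest differences over 2-fold in each direction over the other lists, and the 10 genes most like the members. Not every gene of the lists is reported here. Alternatives were pseudocounts of 1 and 0.01, no filter, a minimum of 5 FPKM, rescaling to a median ratio of 0, subtraction of RNA of other organs, and Spearman's rho. Scripts ran under Python (3.11.15; numpy 2.4.6, pandas 2.3.3, matplotlib 3.10.9) and were checked on simulated data.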

Additional observations from a re-analysis of the deposited data

Results flagged for a closer look

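For 4 of the 10 genes, HFD-ncls minus HFD-veh pointed in opposite directions in different organs by over 1.4-fold each way, on the log2(FPKM + 0.1) scale. The share of all tested genes that did so was not computed, so this count has no background beside it. Fos was at 0.82 in WAT, -0.59 in BAT and -1.12 in muscle. Dusp1 was at 0.90 in WAT, -0.78 in BAT and -0.77 in muscle. Atf3 was at 0.54 in WAT and -1.51 in muscle, and Egr1 at 0.49 in liver and -0.71 in muscle. The count turns on the cut. Egr1 in liver, at 1.402-fold, lay just inside it. Nr4a1, at 1.06 in WAT and -0.48 (1.39-fold) in BAT, lay just outside it. With 1 library per organ and group, the difference between organs was not tested.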

How the results depend on the processing

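No difference over 2-fold changed direction. Of the log2 differences of single members recomputed under 6 alternatives, 626 moved by less than 0.25 and 36 by more, nearly all of these with another pseudocount. With a pseudocount of 1, members over 2-fold higher were 1 in WAT (HFD-veh minus NCD-veh) and 0 in WAT and in liver (HFD-ncls minus HFD-veh), and the median of the members was 1.24 in BAT and 1.60 in liver (HFD-ncls minus NCD-veh) and 0.81 in liver (HFD-veh minus NCD-veh). The same pseudocount gave, as the percentage of all tested genes over 2-fold in either direction, 5.08, 2.09, 2.8 and 2.65 in WAT, BAT, liver and muscle for HFD-veh minus NCD-veh, 0.749, 1.1 and 0.984 in WAT, BAT and liver for HFD-ncls minus HFD-veh, and 5.63, 2.48, 2.8 and 0.368 in WAT, BAT, liver and muscle for HFD-ncls minus NCD-veh. Without a filter that percentage was 3.13 in WAT (HFD-ncls minus HFD-veh) and 1.96 in muscle (HFD-ncls minus NCD-veh), and the liver median of HFD-ncls minus NCD-veh was 1.76. With at least 5 FPKM it was 0.818 in WAT and 1.46 in liver (HFD-ncls minus HFD-veh), 2.64 in muscle (HFD-veh minus NCD-veh) and 0.612 in muscle (HFD-ncls minus NCD-veh). That filter also gave medians of 0.88 (HFD-veh minus NCD-veh) and 1.76 (HFD-ncls minus NCD-veh) in liver, 2 members over 2-fold higher in liver and 3 in muscle (HFD-veh minus NCD-veh), and 1 over 2-fold lower in muscle (HFD-ncls minus HFD-veh). Fewer genes enter under it. Subtracting RNA of other organs left 1 member over 2-fold higher in WAT and 2.37% of all genes over 2-fold in muscle (HFD-veh minus NCD-veh). The count of genes over 2-fold higher in all 4 organs, whose alternatives were chosen after seeing the data, was 0 with a pseudocount of 1, 4 without a filter, 0 with at least 5 FPKM and 0 after the subtraction for HFD-veh minus NCD-veh, and 2 without a filter and 0 with at least 5 FPKM for HFD-ncls minus NCD-veh. With at least 5 FPKM, members higher in all 4 organs were 4 of 5 (HFD-veh minus NCD-veh) and 3 of 4 (HFD-ncls minus NCD-veh). No paired analysis was possible because each organ and group has 1 library, and no library could be left out for the same reason. Depth limits Fosb, Atf3 and Fos in NCD-veh liver, at about 1, 7 and 7 fragments.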
